A study of Arabidopsis thaliana with 48 samples.

Results

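The 60 genes described here are well expressed in wild-type Arabidopsis thaliana seedlings. They have less RNA in each of 3 mutants of the INO80 chromatin-remodelling module, in every day length and set of repeats of the series. A locus was eligible when its mean normalized read count was at least 100 in each of the 3 Col-0 groups, which left 14395 of 32548 measured loci. For each eligible locus the log2 ratio of (mutant mean + 1) to (Col-0 mean + 1) was taken for ino80, the nfrkb triple mutant and the uch double mutant in each of 3 settings. The 60 loci whose largest value among these 9 ratios was lowest were kept, after 7 loci named in the choice were dropped, 5 of them at the Col-0 floor or above. The genes were thus selected on their values against Col-0, which are given below as a description, with no test. Complete loss was rare: 49 genes had a largest ratio at or below -1, 9 at or below -2 and 3 at or below -3. Just inside the limit stood DEG1, AT5G51260 and UBP7, with largest ratios of -0.95, -0.94 and -0.94, and just outside it AT4G01020, EMB2745 and AT3G56080, each at -0.93.

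RNA was sequenced as single-end 50-bp reads from whole seedlings grown on Murashige and Skoog plates, in long days of 16 h light (11 days old) or short days of 8 h light (14 days old by the growth protocol). The mutants are labelled ino80(-/-), nfrkb1(-/-);nfrkb2(-/-);nfrkb3(-/-) (the nfrkb triple mutant), uch1(-/-);uch2(-/-) (the uch double mutant), arp5(-/-) and atx4(-/-);atx5(-/-);jmj24(-/-) (the atx4 atx5 jmj24 triple mutant). The 3 transgenic lines carry INO80 in the ino80 mutant, as the full-length protein (INO80-FL), as residues 1 to 550 (INO80-(1-550 aa)) or as residues 335 to 1540 (INO80-(335-1540 aa)). The promoter of the transgenes and the number of independent transformants are not given in the sources used here. Wild-type Col-0 is the comparison. Each of 24 groups has 2 libraries, 48 in all. The first 2 repeats cover all 9 genotypes and both day lengths and form 1 table of 36 libraries. Short-day repeats 3 and 4 of ino80, both module mutants, the atx4 atx5 jmj24 triple mutant, INO80-FL and Col-0 form a second table of 12 libraries, which was normalized apart, so levels are compared only within a table. The series title names a function of INO80 that does not depend on its SNF2-type ATPase, which is the question the 2 partial proteins address.

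INO80 is the ATPase of a multisubunit machine that moves and exchanges nucleosomes. ARP5, an actin-related protein, belongs to the part of the machine that works on the nucleosome, whereas NFRKB and UCH proteins form a module at the other end of the INO80 protein. ATX4 and ATX5 are histone H3 lysine methyltransferases of the trithorax group, and JMJ24 is a JmjC-domain protein. In plants the INO80 complex is known for roles in flowering time, light and temperature growth responses and genome stability.

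The stretch of 250 bases before the annotated start is printed for 5 genes. They were chosen after their values were seen, as examples of patterns over the lines and not by size of difference. AT2G40570 and HDA2 were low in both partial-INO80 lines. DML2 and BLH4 were higher with residues 1 to 550 than with residues 335 to 1540, and FDM2 was lower. Sequences and positions are from RefSeq, build TAIR10.1, printed 5′ to 3′ on the gene's strand, with capitals marking the letters of the motifs counted further below, on either strand.
AT2G40570, chr2:16940572-16940821, plus strand: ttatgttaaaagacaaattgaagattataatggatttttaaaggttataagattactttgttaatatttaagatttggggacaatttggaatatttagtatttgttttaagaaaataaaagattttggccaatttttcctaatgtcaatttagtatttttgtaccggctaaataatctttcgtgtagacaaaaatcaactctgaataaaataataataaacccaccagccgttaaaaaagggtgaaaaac
HDA2, chr5:9101683-9101932, minus strand: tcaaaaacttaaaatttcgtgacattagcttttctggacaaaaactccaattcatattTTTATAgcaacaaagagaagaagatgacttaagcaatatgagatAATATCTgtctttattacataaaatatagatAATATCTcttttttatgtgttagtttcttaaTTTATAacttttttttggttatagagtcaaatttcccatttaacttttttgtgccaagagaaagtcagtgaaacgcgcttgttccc
DML2, chr3:3088551-3088800, minus strand: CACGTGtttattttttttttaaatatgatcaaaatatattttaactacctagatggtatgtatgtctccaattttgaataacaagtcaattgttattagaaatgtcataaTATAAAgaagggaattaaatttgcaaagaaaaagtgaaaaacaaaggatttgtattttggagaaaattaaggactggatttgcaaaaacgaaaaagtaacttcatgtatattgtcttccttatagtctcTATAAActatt
BLH4, chr2:10113328-10113577, minus strand: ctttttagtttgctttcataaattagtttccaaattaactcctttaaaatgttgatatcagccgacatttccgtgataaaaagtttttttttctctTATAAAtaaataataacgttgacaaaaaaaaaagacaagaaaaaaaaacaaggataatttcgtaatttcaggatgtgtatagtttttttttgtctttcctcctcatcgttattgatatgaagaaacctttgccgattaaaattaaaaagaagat
FDM2, chr4:167247-167496, plus strand: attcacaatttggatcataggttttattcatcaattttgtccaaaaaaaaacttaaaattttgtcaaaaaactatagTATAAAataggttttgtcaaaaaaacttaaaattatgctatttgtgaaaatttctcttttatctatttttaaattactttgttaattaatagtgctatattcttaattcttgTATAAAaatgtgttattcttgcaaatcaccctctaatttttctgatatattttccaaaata
The promoter of AT2G40570 held none of the motifs searched. The HDA2 promoter held AATATCT, the evening element of clock-regulated genes, at 2 places and the TATA-box letters TATAAA, read on the other strand as TTTATA, at 2 places. The G-box CACGTG opened the DML2 window. These matches are letters in a window and were not tested as sites.

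Library totals were 18867187 to 22653356 normalized reads in the first table and 20080952 to 22921363 in the second. The mutated genes were checked first. INO80 RNA in ino80 was 54.5% of Col-0 in long days, and 44.7% and 59.2% in the short-day sets. UCH2 was at 14.2% to 19.3% and UCH1 at 41.3% to 52.5% in the uch double mutant. ATX4 was at 24.9% to 27.4% in the atx4 atx5 jmj24 triple mutant, in which ATX5 was at 86.2%, 44% and 120.9%. ARP5 RNA went against its label: in the libraries labelled arp5 it was 1829% of Col-0 in long days and 2155% in short days, so these are called the libraries labelled arp5 throughout. INO80 RNA was 227% to 303% of Col-0 in INO80-FL, 304% to 407% in INO80-(1-550 aa) and 569% to 765% in INO80-(335-1540 aa). NFRKB1, NFRKB2, NFRKB3 and JMJ24 were not paired with a locus in the annotation used and were not checked.

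Marker genes of tissues moved with the lines. The summed level of 14 photosynthetic genes, all above 1 in each library, was 1536330 to 1894790 normalized reads in INO80-(1-550 aa), 1767540 to 1871530 in INO80-(335-1540 aa), 1502020 to 1659760 in the libraries labelled arp5 and 1707360 to 1734220 in the atx4 atx5 jmj24 triple mutant in long days, against 1882160 to 2104820 in INO80-FL. In short days the same sum was 1201200 to 1372840 over these 4 lines, against 1512350 to 1607330 in INO80-FL. The sum of 14 root markers was 3626 to 5499 over these 4 lines in the first table, against 3941 to 4413 in INO80-FL. In short-day repeats 1 and 2, the 11 seed-storage markers summed to 1943 to 3410 in the libraries labelled arp5 and 1591 to 4506 in the triple mutant, against 27.2 to 37.4 in INO80-FL. The means of 7 of these markers were below 1 in INO80-FL: CRU2, CRU3, SESA1, SESA2, SESA3, SESA5 and OLEO1. Below 1 were also CRU2, SESA1 and SESA3 in the libraries labelled arp5, and CRU2, SESA3 and SESA4 in the triple mutant. The same sum was 30.4 and 1962 in the 2 libraries of INO80-(1-550 aa) and 166 to 168 in INO80-(335-1540 aa). In long days it was 114 and 657 in INO80-(1-550 aa), 34.8 to 351 in INO80-(335-1540 aa), 41.4 to 170 in the libraries labelled arp5 and 74.2 to 178 in the triple mutant. It was 50.6 to 59.2 in long-day INO80-FL. The 5 flower markers summed to 304 to 385 in INO80-(1-550 aa), 536 to 721 in INO80-(335-1540 aa), 485 to 754 in the libraries labelled arp5 and 328 to 505 in the atx4 atx5 jmj24 triple mutant in long days, against 297 to 350 in INO80-FL, with none below 1. In short-day repeats 1 and 2 the sums were 105 to 124, 196 to 278, 103 to 106 and 146 to 176 in that order. INO80-FL had 51.2 to 82.2. AP1 was below 1 in INO80-(1-550 aa), AP3 in the libraries labelled arp5 and AG in the triple mutant. In repeats 3 and 4 the triple mutant had 1177060 to 1233750 (photosynthetic), 364 to 488 (seed) and 135 to 151 (flower). INO80-FL had 1320150 to 1341510, 61.3 to 125 and 86.9 to 110 there. The part of these differences in the results below was not tested, and in whole seedlings fewer cells of a type and less RNA per cell cannot be told apart.

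Against Col-0, the median log2 ratio of the 60 genes was -1.72, -1.83 and -1.68 in ino80 (long days, short-day repeats 1 and 2, short-day repeats 3 and 4), -1.61, -1.53 and -1.80 in the nfrkb triple mutant and -1.63, -1.63 and -1.73 in the uch double mutant. These are the ratios the choice rests on. The lines that the choice did not use spread out between the mutants and wild type. In INO80-FL the median ratio was -0.05, -0.11 and -0.13, and 59 of 60 genes lay nearer to Col-0 than to ino80 in each setting. The choice itself set Col-0 and ino80 apart at these genes, so this count is a description, and it was not taken over other loci. At or below -1 in INO80-FL were 1, 2 and 1 of the 60, and 0.04%, 0.03% and 0.02% of expressed loci. INO80-(335-1540 aa) stood close to the mutants, with medians of -1.56 in long days and -1.58 in short days. INO80-(1-550 aa) stood at -1.14 and -0.99, the libraries labelled arp5 at -0.83 and -0.86, and the atx4 atx5 jmj24 triple mutant at -0.60, -0.84 and -0.73. The median over the 14395 expressed loci lay between -0.07 and 0.01 in all of these.

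**Figure D1:**
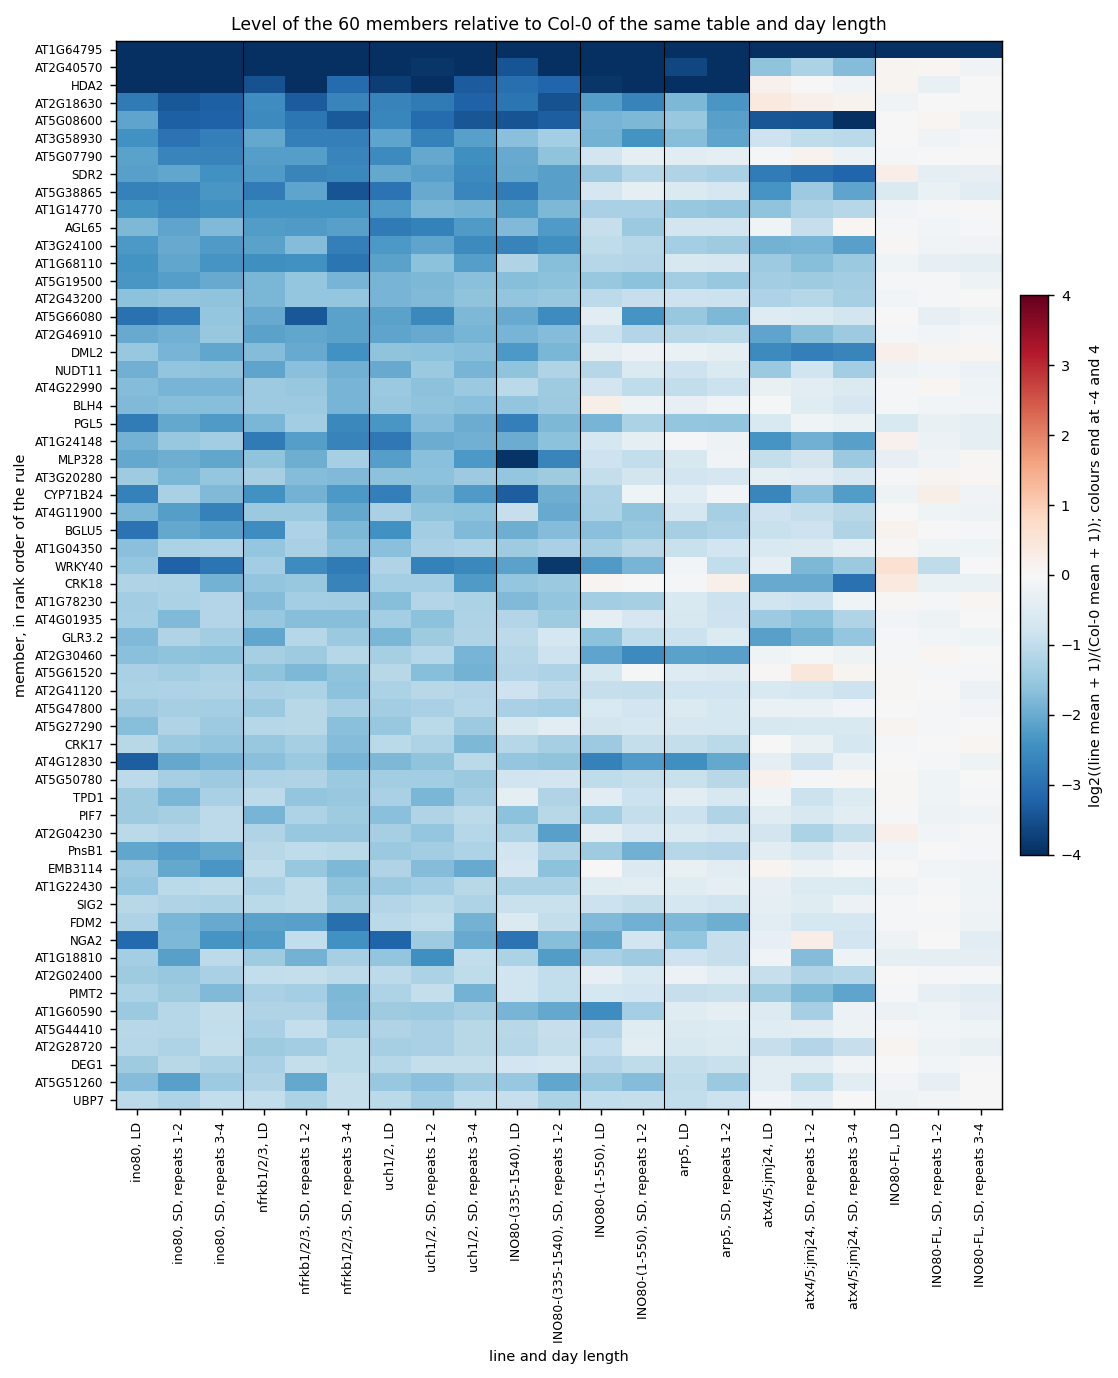
Heat map of the log2 ratio of each line's mean to the Col-0 mean (colour, ending at -4 and 4) for the 60 genes. Rows run from the lowest largest-of-9 ratio down, and columns are the lines by day length and set of repeats. The ino80, nfrkb and uch columns are low by choice. In INO80-FL 56, 58 and 59 of 60 genes lie within 0.5 of 0 in the 3 settings, a count not taken over other loci. The medians of both partial lines, the libraries labelled arp5 and the triple mutant lie between those of ino80 and INO80-FL.

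The gene that did not lie nearer to Col-0 in INO80-FL was AT1G64795, a short uncharacterized gene of 270 bp within the span of AT1G64790. It had 92.8 to 352 normalized reads in Col-0 libraries and at most 13.4 in any of the 42 libraries of the other lines, INO80-FL included. Reads of overlapping genes cannot be told apart where strand was not stated to be used, which holds for 22 of the 60 genes (36.7%, against 30.8% of expressed loci).

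Tests were made against INO80-FL, which shares the ino80 mutation with both partial lines and was not used in the choice. All 4 lines below share the same INO80-FL libraries. Each p-value rests on the spread between libraries of the same group, pooled over all groups of the table. These groups include Col-0 and the mutants used in the choice. The labels do not describe the libraries of a group as separate cultures, and their spread may be technical. A gene is called when the limma adjusted p over all genes of its table is under 0.05, and differences are taken between means of log2(value + 1), which understates the change of low genes. In INO80-(1-550 aa), 50 of 60 genes were lower in long days, where 11.7% of all 25638 genes tested and 17% of the expressed loci were called lower. The count was 47 in short days (12.2% and 18.2%). In INO80-(335-1540 aa), 58 genes were lower in long days (12.4% and 15.4%) and 57 in short days (15.7% and 23%). The median log2 difference was -1.01 and -0.85 in INO80-(1-550 aa) and -1.49 and -1.48 in INO80-(335-1540 aa), against medians between -0.03 and 0.02 over the expressed loci. None of the 60 was called higher by limma in either partial line. Of all genes 10.7% and 9.14% were higher in INO80-(1-550 aa) and 12.1% and 11.9% in INO80-(335-1540 aa), and of expressed loci 14.3%, 11.2%, 16.5% and 13.8%. At an unadjusted p under 0.05 only 1 of the 60 was higher in these contrasts, in INO80-(1-550 aa) in long days. Lower calls in both day lengths were made for 43 genes in INO80-(1-550 aa), where 6.4% of 24251 genes had them, and for 56 genes in INO80-(335-1540 aa), where 6.81% had them.

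The libraries labelled arp5 and the atx4 atx5 jmj24 triple mutant also differed from INO80-FL at these genes, though less. INO80-FL carries the ino80 mutation and an INO80 transgene, which the labels of these 2 lines do not name. These contrasts therefore differ in those as well, and the part of each was not tested. In the libraries labelled arp5, 38 genes were lower in long days (5% of all genes tested, 7.63% of expressed loci) and 39 in short days (5.57% and 8.72%), with medians of -0.79 and -0.76. None was called higher by limma in either day length, where 3.06% and 4.21% of all genes and 3.5% and 4.36% of expressed loci were, nor at an unadjusted p under 0.05. In the triple mutant, 32 genes were lower in long days (7.53% and 8.49%), 41 in short-day repeats 1 and 2 (11.6% and 16.6%) and 26 in repeats 3 and 4 (1.86% and 1.73%), with medians of -0.57, -0.70 and -0.59. A single gene was higher in each of the first 2 settings (6.67% and 7.7% of all genes, 9.59% and 8.96% of expressed loci), AT2G18630 and AT1G64795, and none by limma in the third (0.695% and 0.584%), where none was higher at an unadjusted p under 0.05 either. Leaving out any 1 of the 4 libraries compared ended the call of AT2G18630, and leaving out any of 3 ended that of AT1G64795. Without repeat 3 or repeat 4 of the triple mutant, the 26 lower calls fell to 16 and 15.

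**Figure D2:**
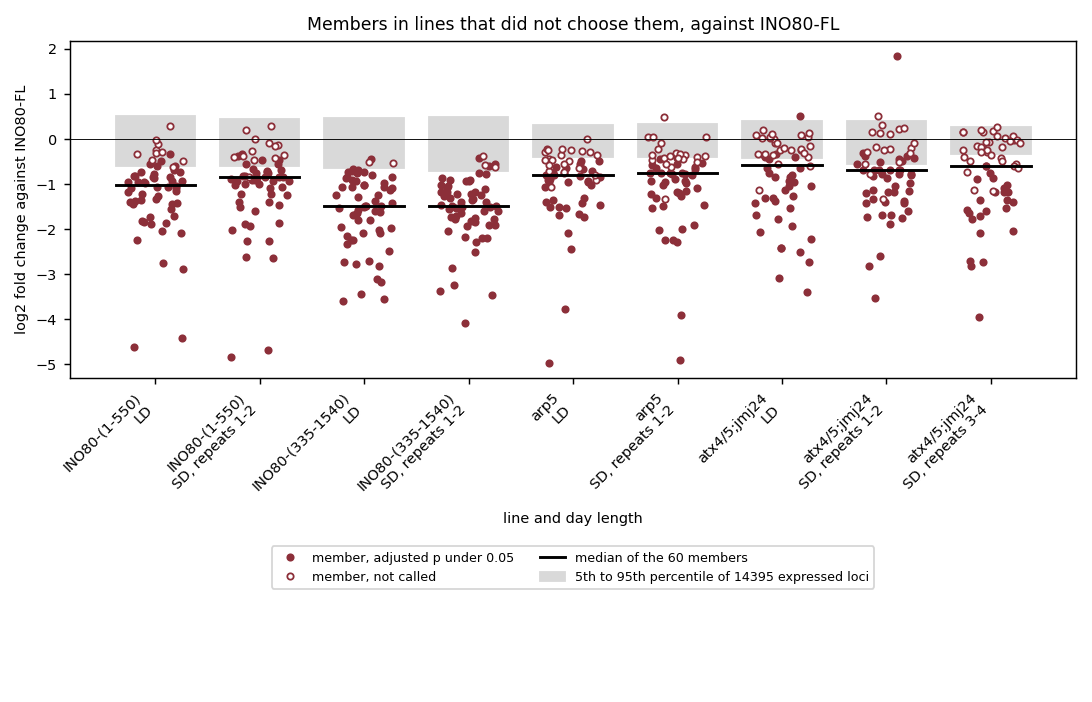
Log2 difference from INO80-FL (vertical axis) for the 60 genes in 9 contrasts, 1 point a gene; filled points passed the limma test at an adjusted p under 0.05, the black line is the median of the 60, and the grey band runs from the 5th to the 95th percentile of the 14395 expressed loci. The medians lie between -0.57 and -1.49, and INO80-(335-1540 aa) has the lowest.

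Sorted by what their products do, a grouping made after the genes were known, 5 members act on chromatin or DNA methylation. HDA2, a histone deacetylase, had 13.7 and 1.01 normalized reads in INO80-(1-550 aa), 12.3 and 16.9 in INO80-(335-1540 aa) and 147 and 119 in INO80-FL in long days. In short days it had 2.82 and 1.89 in INO80-(1-550 aa), 12.5 and 9.19 in INO80-(335-1540 aa) and 87.3 and 82.5 in INO80-FL. It was much lower in both partial lines and the libraries labelled arp5 (7.97 and 1.02 in long days), which did not overlap INO80-FL. The log2 difference in INO80-(1-550 aa) was -4.62 (SE 0.74, limma adjusted p = 6.3e-05) in long days, and -3.18 to -6.05 when single libraries were left out or settings changed. The atx4 atx5 jmj24 triple mutant instead had 137 and 144 in long days, within the range of INO80-FL, and its differences of 0.08, 0.31 and -0.15 did not pass (limma adjusted p = 1.0, 0.85 and 0.77). HDA2 overlaps AT5G26030 on the chromosome.

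DML2, a DNA glycosylase of active DNA demethylation, showed another order. In long days it had 206 and 216 in INO80-(1-550 aa), 49 and 61.5 in INO80-(335-1540 aa), 46.3 and 46.2 in the triple mutant and 319 and 306 in INO80-FL. In short days it had 256 and 188 in INO80-(1-550 aa), 70.2 and 75 in INO80-(335-1540 aa), 42.6 and 35.2 in the triple mutant and 278 and 284 in INO80-FL. The 335-1540 line and the triple mutant were thus below the ino80 libraries themselves in long days (94.9 and 96.3), whereas the 1-550 line stood between. Its log2 difference from INO80-FL was -2.49 and -1.94 in INO80-(335-1540 aa) and -2.73, -2.83 and -2.71 in the triple mutant (SE 0.17 in the first table, 0.22 in the second, largest limma adjusted p = 0.00027). In INO80-(1-550 aa) it was -0.56 in long days (limma adjusted p = 0.018) and -0.35 in short days (0.15).

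FDM2, an XH/XS-domain protein of RNA-directed DNA methylation, ran the other way. It had 54.6 and 58.1 in INO80-(1-550 aa), 134 and 126 in INO80-(335-1540 aa), 55.8 and 55.4 in the libraries labelled arp5 and 192 and 183 in INO80-FL in long days. The 1-550 line and the libraries labelled arp5 were alike, with log2 differences of -1.72 and -1.74 (SE 0.20), and the 335-1540 line did not pass in long days (-0.53, limma adjusted p = 0.06) but did in short days (-0.91, 0.0016). The protein of FDM1 is 92.0% identical to that of FDM2, so reads of the pair may have been split. AT5G50780, of the histidine kinase-, DNA gyrase B- and HSP90-like ATPase family, was lower in both partial lines in both day lengths (-1.05 and -0.76, -0.85 and -0.56) and in the libraries labelled arp5 (-0.95 and -0.93), while in the triple mutant it had 410 and 403 in long days, above the 363 and 379 of INO80-FL, a difference of 0.13 that did not pass. AT2G28720, of the histone superfamily, was lower in 4 contrasts in long days, by -0.76 to -1.25, and its protein is 88.1% identical to that of HTB9.

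Of 5 transcription factors, all were lower in INO80-(335-1540 aa) in both day lengths. The same held for 56 of all 60 members and 6.81% of 24251 genes. BLH4, a BEL1-like homeodomain protein, had 1457 and 1133 in INO80-(1-550 aa), 383 and 351 in INO80-(335-1540 aa), 879 and 895 in the libraries labelled arp5 and 1112 and 999 in INO80-FL in long days. Both INO80-(1-550 aa) libraries lay just above those of INO80-FL, and the INO80-(335-1540 aa) libraries were near those of ino80 (317 and 335). The differences from INO80-FL were 0.29 and -0.08 in INO80-(1-550 aa) and -1.52 and -1.35 in INO80-(335-1540 aa) (SE 0.13, limma adjusted p = 1.3e-08 and 4.7e-08). AGL65, a MADS-box factor of pollen, was lower in both partial lines, by -0.84 and -1.40 with residues 1 to 550 and -1.68 and -2.19 with residues 335 to 1540. NGA2, a B3-domain factor of leaf and fruit shape, had 32 and 27.1 in INO80-(1-550 aa), 19.7 and 10.8 in INO80-(335-1540 aa) and 117 and 102 in INO80-FL in long days. PIF7, a bHLH factor of the shade response, had 412 and 313 in INO80-(1-550 aa), 317 and 293 in INO80-(335-1540 aa) and 996 and 861 in INO80-FL in long days. PIF7 was lower in both partial lines and in the libraries labelled arp5 in both day lengths, and it overlaps AT5G61260. WRKY40, a defence-related repressor, varied within groups: Col-0 had 122 and 401 in long days and 96.7 and 218 in short days. It was lower in INO80-(335-1540 aa) in both day lengths (-2.74 and -3.25, SE 0.55) and in INO80-(1-550 aa) in long days (-2.89, limma adjusted p = 0.00042).

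**Figure D3:**
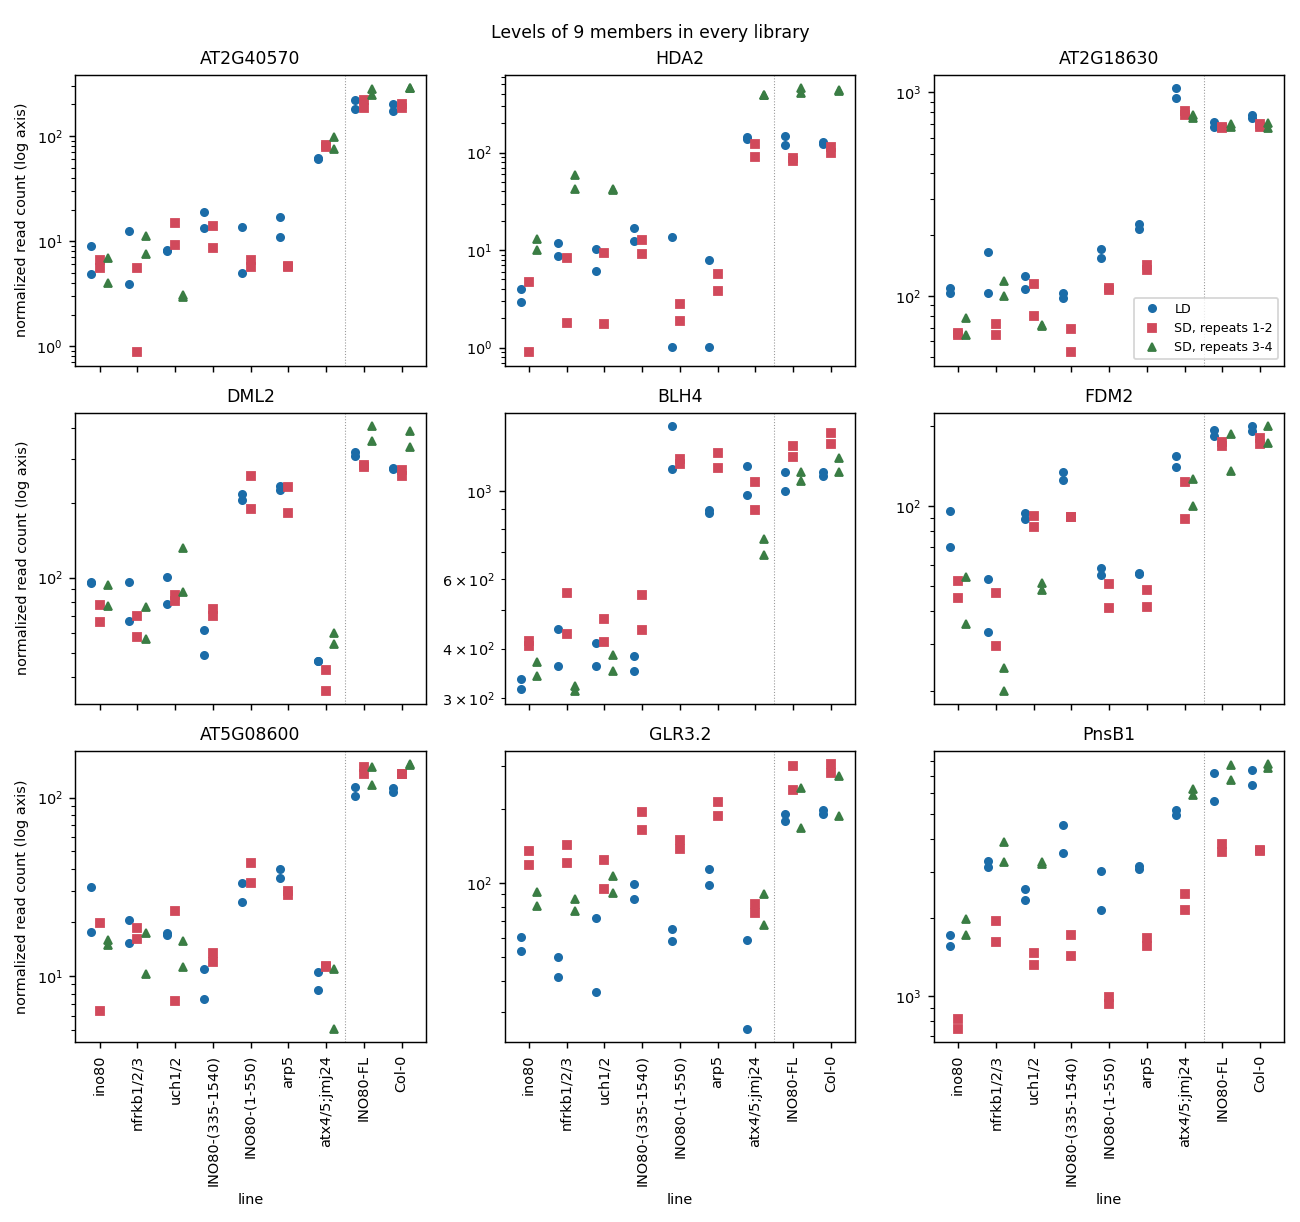
Normalized read counts (log axis) of 9 of the 60 genes in every library, with the mutants and partial lines left of INO80-FL and Col-0, which follow the dotted line; circles are long days, squares short-day repeats 1 and 2, triangles short-day repeats 3 and 4. BLH4 in INO80-(1-550 aa) differs from INO80-FL by 0.29 and -0.08 on the log2 scale, neither called, HDA2 is near its INO80-FL level in the atx4 atx5 jmj24 triple mutant, and AT2G40570 is low in both partial lines.

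There are 2 genes named for RNA processing. AT2G40570, annotated as an initiator tRNA phosphoribosyl transferase, which in yeast marks the initiator tRNA, had 13.8 and 5.01 in INO80-(1-550 aa), 13.4 and 19.1 in INO80-(335-1540 aa), 62.1 and 59.9 in the triple mutant and 221 and 181 in INO80-FL in long days. In short days it had 6.56 and 5.70 in INO80-(1-550 aa), 8.62 and 14 in INO80-(335-1540 aa), 82.3 and 78.1 in the triple mutant and 220 and 185 in INO80-FL. Both partial lines were below 20 normalized reads in every library, and the triple mutant stood between them and INO80-FL. The log2 difference in INO80-(1-550 aa) was -4.41 in long days and -4.83 in short days (SE 0.48, limma adjusted p = 3.9e-07 and 1.3e-07), and that in the triple mutant -1.70, -1.32 and -1.60, the second of which did not pass (0.018, 0.054 and 0.015). AT5G08600, of the U3 ribonucleoprotein (Utp) family, whose members process ribosomal RNA precursors in yeast, was low in INO80-(335-1540 aa) and in the triple mutant alike. It had 33.1 and 26.1 in INO80-(1-550 aa), 11 and 7.50 in INO80-(335-1540 aa), 10.5 and 8.43 in the triple mutant and 102 and 115 in INO80-FL in long days. Its difference in the triple mutant was -3.39, -3.52 and -3.95 (limma adjusted p = 2.9e-06, 1.2e-06 and 0.0005), the largest fall among the 60 in each of the 3 settings.

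All 4 plastid genes were lower in both partial lines and in the libraries labelled arp5 in both day lengths. Of all 60 members, 43 were in INO80-(1-550 aa), 56 in INO80-(335-1540 aa) and 35 in the libraries labelled arp5. Of 24251 genes, 6.4%, 6.81% and 2.73% were. PnsB1, a subunit of the chloroplast NADH dehydrogenase-like complex, is among the most abundant of the 60, with 3013 and 2138 in INO80-(1-550 aa), 4516 and 3541 in INO80-(335-1540 aa), 3164 and 3068 in the libraries labelled arp5 and 7174 and 5622 in INO80-FL in long days. In short days it had 934 and 990 in INO80-(1-550 aa), 1721 and 1421 in INO80-(335-1540 aa), 1552 and 1674 in the libraries labelled arp5 and 3556 and 3819 in INO80-FL. None of these lines overlapped INO80-FL, and among them the lowest level was that of INO80-(1-550 aa), at -1.32 and -1.94 (SE 0.14, limma adjusted p = 2.8e-07 and 9.3e-10). SIG2, a sigma factor of the plastid RNA polymerase, fell by similar amounts in the 2 partial lines (-0.82 and -0.93 with residues 1 to 550, -0.85 and -0.86 with residues 335 to 1540). DEG1, a protease of the thylakoid lumen, was lower by -1.16 and -0.92 in INO80-(1-550 aa) and by -0.74 and -0.61 in INO80-(335-1540 aa). AT2G46910, a fibrillin, had 211 and 247 in the triple mutant in long days, below both partial lines, against 988 and 931 in INO80-FL. These genes moved beside the photosynthetic marker sum, whose values in the same lines are given above.

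Signalling is the role of 8 members, which code for receptors or signalling proteins. GLR3.2, listed as GLUR2, is a glutamate receptor-like cation channel. It had 65.2 and 58.1 in INO80-(1-550 aa), 99.4 and 86.3 in INO80-(335-1540 aa), 25.6 and 58.5 in the triple mutant and 190 and 178 in INO80-FL in long days. Among these lines the triple mutant had the lowest mean and differed from INO80-FL by -2.22, -1.75 and -1.36 (largest limma adjusted p = 0.017). Of the 2 partial lines the 335-1540 line passed in long days alone (-0.98 and -0.58, limma adjusted p = 0.0093 and 0.12). CRK18 and CRK17 (listed as EMB1290), cysteine-rich receptor-like kinases, lie 389 bp apart on chromosome 4 with proteins 73% identical, the only neighbouring pair among the 60. CRK18 had 290 and 423 in INO80-(1-550 aa), 85 and 139 in INO80-(335-1540 aa), 90.3 and 70.5 in the triple mutant and 464 and 401 in INO80-FL in long days. It was not called in INO80-(1-550 aa) or the libraries labelled arp5, and fell by 1.98 and 1.26 on the log2 scale in INO80-(335-1540 aa). CRK17 had 207 and 208 in INO80-(1-550 aa), 267 and 250 in INO80-(335-1540 aa), 650 and 482 in the triple mutant and 576 and 515 in INO80-FL in long days, and was lower in both partial lines in both day lengths. In the triple mutant CRK17 was not called in long days or short-day repeats 1 and 2 (0.04 and -0.29) and was lower in repeats 3 and 4 (-0.76, limma adjusted p = 0.031), whereas CRK18 was lower in all 3 settings. CRK17 overlaps AT4G23240. AT5G66080, a protein phosphatase 2C, was lower in INO80-(335-1540 aa) in both day lengths (-2.02 and -2.17). TPD1, the secreted ligand that specifies the anther tapetum, was lower in both partial lines, by -0.44 to -1.04.

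All 3 genes of the ubiquitin system were lower in both partial lines and the libraries labelled arp5 in both day lengths. AT3G58930, an F-box protein, had 35.2 and 30.1 in INO80-(1-550 aa), 34.5 and 41.4 in INO80-(335-1540 aa), 70.5 and 69.3 in the triple mutant and 115 and 130 in INO80-FL in long days. The partial lines and the triple mutant did not overlap INO80-FL. UBP7, a ubiquitin-specific protease at the edge of the choice, had 130 and 134 in INO80-(1-550 aa), 143 and 135 in INO80-(335-1540 aa), 247 and 235 in the triple mutant and 227 and 229 in INO80-FL in long days, and was not called in the triple mutant in any setting. UBP7 overlaps AT3G21290.

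Among 14 metabolic enzymes, 12 were lower in INO80-(1-550 aa) in each day length and 14 and 13 in INO80-(335-1540 aa). These counts are near those of all 60 members, 50 and 47 in the first line and 58 and 57 in the second. Of expressed loci, 17% and 18.2% were lower in the first line and 15.4% and 23% in the second. SDR2, a short-chain dehydrogenase, had 44.8 and 37.1 in INO80-(1-550 aa), 29.7 and 23.5 in INO80-(335-1540 aa), 14.8 and 15.7 in the triple mutant and 133 and 141 in INO80-FL in long days. Its largest fall was in the triple mutant, by 3.09, 2.6 and 2.82 on the log2 scale (SE 0.26 in the first table and 0.37 in the second, limma adjusted p = 2.1e-08, 2.7e-07 and 0.0037). SDR2 overlaps AT2G24180, and the protein of SDR1 is 84.7% identical to it. NUDT11, a nudix hydrolase acting on coenzyme A, and AT2G43200, a methyltransferase-family protein, were lower in both partial lines in both day lengths and in the triple mutant in all 3 settings. PGL5, a 6-phosphogluconolactonase, was lower in both partial lines in both day lengths, by -1.01 to -2.09, and its differences of 0.04, 0.12 and 0.16 in the triple mutant did not pass. AT4G12830, an alpha/beta-hydrolase, had 137 and 82.2 in INO80-(1-550 aa), 286 and 205 in INO80-(335-1540 aa), 128 and 133 in the libraries labelled arp5 and 781 and 660 in INO80-FL in long days. It was the third-largest fall among the 60 in the libraries labelled arp5 in long days (-2.45, SE 0.21, limma adjusted p = 4.7e-08), after HDA2 and AT2G40570, and overlaps AT4G12840.

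Of the 4 transport genes, all were lower in INO80-(335-1540 aa) in both day lengths. AT2G30460, of the nucleotide-sugar transporter family, had 108 and 75.2 in INO80-(1-550 aa), 175 and 185 in INO80-(335-1540 aa), 91.6 and 84.7 in the libraries labelled arp5, 379 and 328 in the triple mutant and 374 and 379 in INO80-FL in long days. The 1-550 line and the libraries labelled arp5 were the lowest, and the triple mutant, with differences of -0.10, -0.17 and -0.17, did not pass. The protein of AT1G06890 is 90.8% identical to that of AT2G30460. AT4G22990, of the SPX-MFS family of vacuolar phosphate transporters, was lower in both partial lines and the libraries labelled arp5 in both day lengths, by -0.72 to -1.5. AT5G19500, annotated as a tryptophan/tyrosine permease, was lower in all 9 contrasts with INO80-FL, by -1.18 to -1.62.

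The remaining 15 members have another role or none described. AT2G18630, a DUF677 protein, had 171 and 154 in INO80-(1-550 aa), 97.5 and 103 in INO80-(335-1540 aa), 225 and 213 in the libraries labelled arp5, 936 and 1055 in the triple mutant and 712 and 677 in INO80-FL in long days. It was low in the INO80 and arp5-labelled lines and highest in the triple mutant, where the difference of 0.52 (SE 0.16, limma adjusted p = 0.031) was the higher call named above. In INO80-(335-1540 aa) it fell by 2.78 and 3.47. MLP328, of the major latex protein family, had 169 and 185 in INO80-(1-550 aa), 21 and 18.1 in INO80-(335-1540 aa) and 256 and 239 in INO80-FL in long days. In short days it had 734 and 643 in INO80-(1-550 aa), 168 and 265 in INO80-(335-1540 aa) and 1448 and 1017 in INO80-FL. The 335-1540 line was below the ino80 libraries of long days (89.99 and 58.8), and its difference from INO80-FL was -3.60 and -2.52 (SE 0.22). The protein of MLP329 is 88.1% identical to that of MLP328. AT5G38865, uncharacterized and overlapping AT5G38880, had 280 and 200 in INO80-(1-550 aa), 59.5 and 48 in INO80-(335-1540 aa) and 282 and 233 in INO80-FL in long days, and was not called in INO80-(1-550 aa) in either day length. AT5G07790, uncharacterized, had 97.6 and 115 in INO80-(1-550 aa), 35.8 and 52.9 in INO80-(335-1540 aa) and 178 and 166 in INO80-FL in long days.

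The 2 partial proteins were then compared with each other. In INO80-(1-550 aa) against INO80-(335-1540 aa), 23 of the 60 genes were higher and 5 lower in long days, where 9.18% and 9.92% of all genes tested and 11.5% and 15.2% of expressed loci were. In short days 26 were higher and 6 lower (3.96% and 3.8% of all genes, 5.33% and 4.89% of expressed loci). The median difference was 0.28 in long days and 0.51 in short days, against -0.03 and 0.01 over the expressed loci. Leaving out any 1 of the 4 short-day libraries compared left 17 or 18 genes higher. In all, 19 genes were higher in both day lengths (1.86% of 24251 genes) and 5 were lower in both (1.98%). The largest differences in long days were those of MLP328 (3.12, SE 0.22), AT5G38865 (2.13, SE 0.18) and CYP71B24, a cytochrome P450 (2.11, SE 0.20), with limma adjusted p = 2.3e-09, 4.9e-08 and 2.8e-07. DML2 (1.92 and 1.58), BLH4 (1.81 and 1.26), CRK18 (1.68 and 1.55) and AT5G08600 (1.59 and 1.5) were also higher with residues 1 to 550 in both. The 5 genes lower with residues 1 to 550 in both day lengths were AT2G30460 (-0.99 and -1.71), FDM2 (-1.19 and -0.98), AT4G12830 (-1.18 and -0.71), PnsB1 (-0.66 and -0.70) and DEG1 (-0.42 and -0.31). Of these 5, PnsB1 and DEG1, code for chloroplast proteins. Normalized reads at the INO80 locus averaged 12088 and 12617 in INO80-(335-1540 aa) in the 2 day lengths, against 6429 and 6734 in INO80-(1-550 aa). These counts are not stated to be scaled for length, and the transgene of residues 335 to 1540 is the longer. The ino80 mutant itself had 862 and 991 reads there. The 2 transgenes thus cannot be ranked by RNA level from these counts, and the part of transgene level in these differences was not tested.

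**Figure D4:**
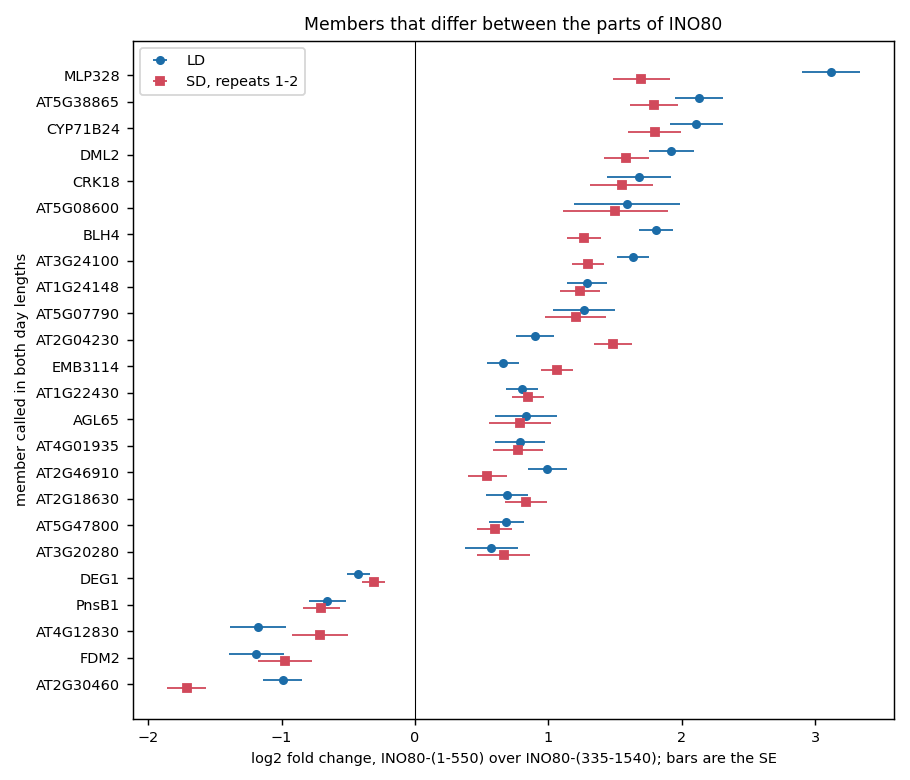
Log2 difference between INO80-(1-550 aa) and INO80-(335-1540 aa), with the standard error as a bar, for the 24 genes called in both day lengths. In all, 19 genes lie above 0 in both and 5 below 0 in both, from MLP328 at 3.12 in long days to AT2G30460 at -1.71 in short days.

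Calls in the atx4 atx5 jmj24 triple mutant varied over the 60 genes. Of them, 21 were lower than in INO80-FL in all 3 settings (0.998% of 24251 genes), among them AT5G08600, SDR2, DML2, CRK18, GLR3.2, AT2G46910 and AT5G38865. Another 14 were lower in none, among them HDA2, AT2G18630, AT5G66080, PGL5, AT2G30460, NGA2, AT5G50780 and UBP7. AT1G64795, already low in INO80-FL, is also among the 14. The remaining members were lower in 1 or 2 settings. The share of all genes lower in none was not taken, so this count is a description. CRK18 had 65.2 and 89.2 in the triple mutant and 572 and 458 in INO80-FL in short-day repeats 3 and 4, a fall of 2.73 on the log2 scale (SE 0.16, limma adjusted p = 4.3e-05). In the libraries labelled arp5, 35 genes were lower in both day lengths (2.73%) and 18 in neither. DML2, BLH4, CRK18, GLR3.2, MLP328 and AT1G64795 were among the 18, a count not taken over other genes either. Each of these lines was compared with the same INO80-FL libraries, so no overlap between the lines is counted.

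Day length by itself moved the 60 genes as it moved others. In INO80-FL, 10 were lower and 10 higher in short than in long days, where 15.8% and 16.4% of all genes tested and 20.7% and 23.7% of expressed loci were, and the median difference was -0.01. WRKY40 had 75.9 and 78.3 in short days and 424 and 376 in long days (-2.36, SE 0.55, limma adjusted p = 0.0017). MLP328 was higher in short days by 2.29 (SE 0.22), and so were AT1G60590, of the pectin lyase family (2.33), and AT1G18810, related to phytochrome kinase substrates (1.73). Long-day seedlings were 11 and short-day seedlings 14 days old, so day length and age cannot be told apart. The effect of a partial protein differed between day lengths for few genes: 1 more negative and 3 more positive in short days for INO80-(1-550 aa) (2.93% and 2.05% of all genes, 4.55% and 2.99% of expressed loci), and 2 and 4 for INO80-(335-1540 aa) (5.74% and 3.62%, 9.18% and 4.53%). With libraries scaled to equal totals the last pair was 2 and 8.

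Genes related to the 60 by position or sequence were not used in the choice, so the module mutants could be tested against Col-0 there. The 9 contrasts share Col-0 libraries within a table and day length. In long days the photosynthetic marker sum was 1200220 to 1390720 over the 3 mutants, against 2010110 to 2038410 in Col-0, and its part in these differences was not tested. Of 118 next-door genes that are no members, 8 to 26 were called lower and 11 to 27 higher in a contrast, where 7.21% to 20.6% and 6.79% to 18.1% of all genes were. Scaling all libraries to equal totals moved log2 differences by 0.07 to 0.20 and these counts to 5 to 14 lower and 13 to 43 higher, so the split between directions rests on the scaling. There were 3 next-door genes were lower in all 9 (2.63% of 24251 genes): NPQ1, the violaxanthin de-epoxidase gene next to SIG2 (-0.378 to -0.996), PSAL, a photosystem I subunit gene next to AT4G12830 (-0.35 to -0.68), and AT3G20270 next to AT3G20280 (-0.36 to -1.06). With equal totals NPQ1 and AT3G20270 were lower in 8 of 9. One, the plant defensin gene PDF1.2 next to AT5G44410, was higher in all 9 (1.66% of genes), by 2.4 to 5.99, and in 8 with equal totals.

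Of 46 closest paralogs by protein identity, 6 to 17 were lower and 5 to 9 higher in a contrast, where 7.21% to 20.6% and 6.79% to 18.1% of all genes were. With equal totals 6 to 13 were lower and 5 to 13 higher. There were 5 lower in all 9 (2.63% of 24251 genes): GLR3.1, the closest paralog of GLR3.2, AT1G50620 of AT3G20280, AT1G52510 of AT4G12830, AT4G00750 of AT2G43200 and AT5G59540 of AT1G04350. With equal totals AT5G59540 was lower in 8 of 9. AT4G25150, the closest paralog of AT5G51260 (0.92 to 1.36), and AT5G61300, that of AT5G07790 (0.49 to 0.84), were higher in all 9 (1.66% of genes), also with equal totals. Some paralogs, picked out here after their values were seen, did not follow the member: HDA6, the closest paralog of HDA2, was called in none of the 9 (-0.13 to 0.11), FDM1 was lower in 3 (-0.41 to -0.07), and WRKY18 was higher in 6 (0.66 to 1.93).

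In all, 8 family lists were examined, chosen with earlier results of these libraries known, and together 80 of their genes that are no members were tested (78 in the second table). In a contrast, 13 to 35 were lower and 3 to 12 higher, where 7.21% to 20.6% and 6.79% to 18.1% of all genes were. With equal totals the counts were 9 to 28 and 4 to 14. Of 24251 genes, 2.63% were lower in all 9 contrasts and 1.66% higher. These shares are the background of each list here and in the next paragraph, and no list was tested as a set. Of the 3 DNA glycosylases that work with DML2, DML3 was lower in all 9 contrasts (-1.35 to -3.45, also with equal totals), ROS1 (listed as DML1) in 8 and DME in 3. Over these 3 genes and with equal totals, 1 or 2 were lower and 0 or 1 higher in a contrast. Among 19 glutamate receptor genes beside GLR3.2, 6 to 8 were lower and 2 to 4 higher in a contrast, and 5 to 8 and 2 to 5 with equal totals. GLR3.1 (listed as GLR2, -1.17 to -2.68), GLR3.4 (-0.88 to -1.70), GLR2.7 (-1.26 to -2.92), GLR1.1 (-0.50 to -1.28) and GLR1.3 (-2.02 to -2.58) were lower in all 9, with GLR3.4 and GLR1.1 in 8 with equal totals. GLR2.2 was higher in 8 and GLR2.3 in 7, so the family did not move one way. Of 20 RNA-editing PPR genes, 2 to 10 were lower in a contrast and 0 or 1 higher, with OTP84 (-2.16 to -3.05) and OTP86 (-0.32 to -1.34) lower in all 9 and OTP86 in 8 with equal totals. With equal totals, 1 to 9 PPR genes were lower and 0 to 4 higher, and in ino80 in long days the split turned to 3 lower and 4 higher.

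Of 14 B-box zinc finger genes, 7 to 11 were lower in the 6 contrasts of the first table, but by limma 0, 6 and 1 of 13 in ino80, the nfrkb triple mutant and the uch double mutant in the second, where 4, 6 and 3 were lower at an unadjusted p under 0.05. With equal totals these were 7 to 9 in the first table and 0 to 3 in the second. Of 15 MADS-box genes of flowering, 1 to 5 were lower and 1 or 2 higher, and 0 to 4 and 1 to 3 with equal totals. SVP, a repressor of flowering, was lower in all 9 (-0.26 to -0.62), in 6 with equal totals, and SEP3, a floral organ gene that is also one of the flower markers, was higher in all 9 (1.07 to 3.14). Among the other NGATHA genes, 0 or 1 of 3 was called lower in a contrast. The pyrimidine catabolism genes gave 0 or 1 lower and 0 to 4 higher of 4, and the HOL genes 0 or 1 in each direction of 2.

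**Figure D5:**
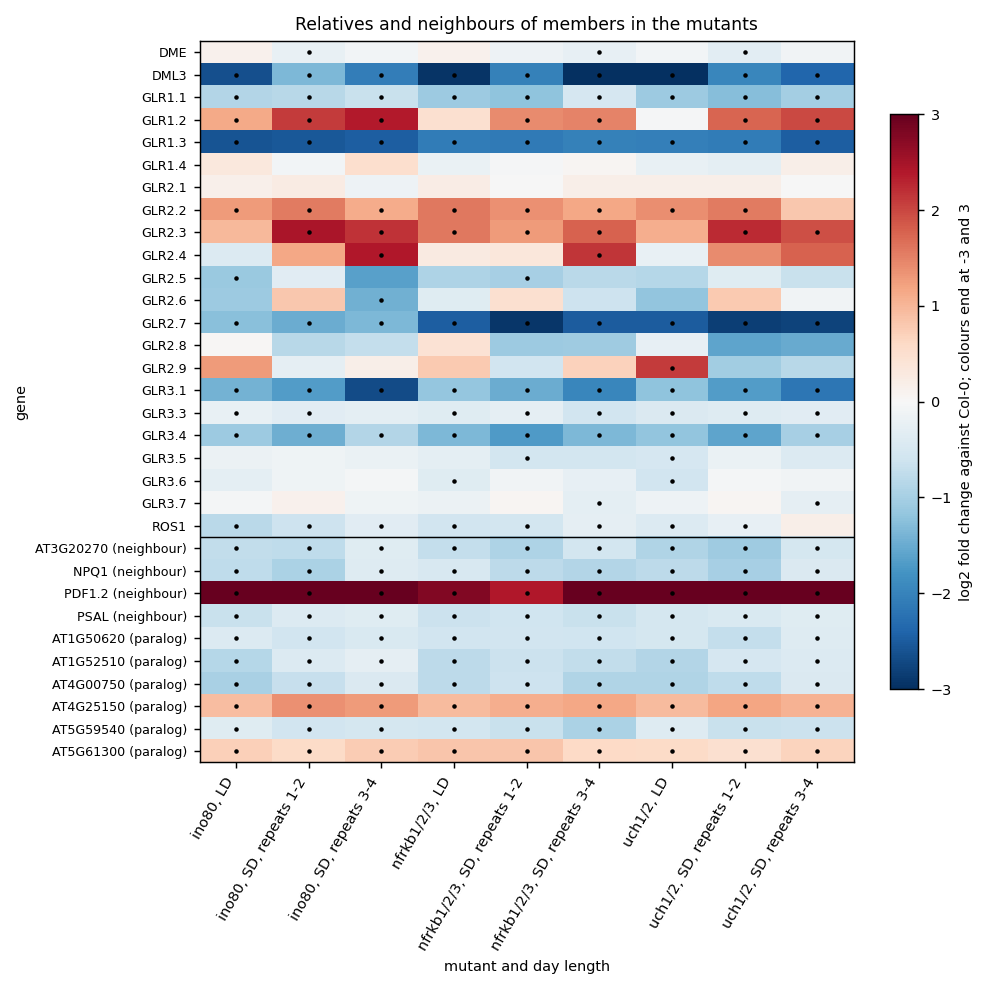
Log2 difference from Col-0 (colour, ending at -3 and 3) of non-member genes in the 9 contrasts of ino80, the nfrkb triple mutant and the uch double mutant: glutamate receptors, DNA glycosylases, and next-door genes and paralogs called in all 9; dots mark a limma adjusted p under 0.05. DML3, GLR3.1, GLR2.7 and GLR1.3 are lower in all 9 columns and PDF1.2 higher in all 9.

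In position and sequence the 60 genes resembled other expressed loci in most measures taken. Chromosomes 1 to 5 held 14, 13, 8, 9 and 16 of them, or 23.3%, 21.7%, 13.3%, 15% and 26.7%, against 25.8%, 15.4%, 20%, 15.4% and 23.5% of expressed loci. The median gene length was 2412 bp, against 2590 bp, and both had a median of 5 exons. The next gene upstream pointed away from 34 of the 60 (56.7%), against 48.5% of expressed loci. After CRK17 and CRK18, the closest pair of members was AGL65 and AT1G18810, 15530 bp apart with 6 measured genes between them. In the 250 bases before the start, the TATA letters TATAAA stood in 46.7% of the 60 genes and in 45.7% of 14350 expressed promoters, on either strand. The site II letters TGGGCC stood in 18.3%, against 17.9%, GAGAGA in 16.7%, against 18.8%, the W-box core TTGACC in 11.7%, against 11.9%, and the I-box core GATAAG in 11.7%, against 12.5%. The G-box CACGTG stood in 10%, against 7.48%, the RY letters CATGCA in 8.33%, against 6.85%, and the telo-box AAACCCT in 5%, against 6.04%. The evening element AATATCT was in 3 of the 60 (5%), against 10.05% of expressed promoters, and the heat-shock core TTCNNGAA in 1 (1.67%), against 7.39%. With 60 promoters 1 gene is 1.67 percentage points, and these shares were not tested.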

How the data were processed

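RNA of whole seedlings was sequenced in 48 libraries. The deposited values are gene-level signal, normalized read counts of 32548 loci made by the authors with HISAT2 2.2.0, the TAIR10 build and edgeR (version not given in the sources used here), per the submitters' processing notes. The normalization method is not given in the sources used here. The 2 deposited tables were normalized apart and fitted apart. Of low values, 82.47% to 100% (first table) and 88.38% to 100% (second) lay within 0.1 of a whole multiple of 1 step, so no count test was run.

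Computed here were log2(value + 1) for genes at 1 or more in at least 2 libraries of a table, and limma 3.58.1 (R 4.3.3) with a mean trend over all groups of a table, Benjamini-Hochberg adjustment over all genes and a threshold of 0.05. The step was tested on simulated data. Paralogs are best BLASTP hits (BLAST+ 2.17.0, E at most 1e-10, identity at least 30%, coverage at least 50%). The members and lists were chosen with earlier results of these data known.

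Named were the 20 members with the lowest largest ratio, apart from AT1G14770, AT3G24100 and AT1G68110, for which no values are given. Also named were the 3 called lower and the 3 called higher by most in each contrast, apart from AT5G61520. The rest were members with listed relatives, neighbouring members, relatives called in all 9 contrasts, and loci at the limit. Other members named by role were chosen after their values were seen. Alternatives were a pseudocount of 4, no filter, equal library totals, a replicate block, a fit of the compared genotypes alone, each library left out and, chosen after seeing the data, a fit with no libraries labelled arp5.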

Additional observations from a re-analysis of the deposited data

Results flagged for a closer look

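For 10 of the 60 genes the effect of a partial INO80 protein against INO80-FL differed between short and long days in a limma test of that difference, given here as short days minus long days on the log2 scale. With INO80-(1-550 aa), AT5G66080 differed by -1.55 (SE 0.362, limma adjusted p = 0.012), with -2.02 in short days and -0.47 in long days. In the same line AT2G28720 differed by 0.83 (limma adjusted p = 0.011), AT5G44410 by 0.71 (0.018) and AT1G04350 by 0.47 (0.048). With INO80-(335-1540 aa), AT1G18810 differed by -0.89 (limma adjusted p = 0.01) and EMB3114 by -0.84 (0.0032). In that line MLP328 differed by 1.08 (limma adjusted p = 0.027), CYP71B24 by 0.97 (0.033), AT1G24148 by 0.76 (0.025) and PIF7 by 0.68 (0.023). Each effect rests on 2 libraries a group, and short-day seedlings were also older. These are 4 genes with INO80-(1-550 aa), where 4.55% of expressed loci differed downward and 2.99% upward, and 6 with INO80-(335-1540 aa), where 9.18% and 4.53% did, so the counts are near the background. Over 14 alternative settings, AT1G04350 lost its call in 9, CYP71B24 in 7, MLP328 and AT1G24148 in 6 each, AT5G44410 and PIF7 in 4 each, AT2G28720 and AT1G18810 in 2 each, AT5G66080 in 1 and EMB3114 in 0.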

How the results depend on the processing

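Against INO80-FL, the counts of members called lower stayed within 1.5 times in the first table under every alternative run. With single libraries left out they were 40 to 45 and 36 to 41 in INO80-(1-550 aa) (long days, short days), 55 to 57 and 56 to 57 in INO80-(335-1540 aa), 28 to 32 and 29 to 32 in the libraries labelled arp5, and 25 to 29 and 29 to 35 in the atx4 atx5 jmj24 triple mutant. Equal totals shifted all genes by -0.01 to 0.15 (log2) against INO80-FL. No named value changed sign, and single-gene calls were lost in 57 gene-by-setting cases. In the second table the triple mutant's lower calls were 15 to 20 with a library left out and 0 by limma with only the compared genotypes, a fit with 2 residual degrees of freedom in which 38 were lower at an unadjusted p under 0.05. Higher calls against INO80-FL were 0 to 1 for INO80-(1-550 aa) in long days with a library left out and 1 with equal totals. For the triple mutant they were 0 in long days and 0 to 1 in short-day repeats 1 and 2 with a library left out, 2 with equal totals, 2 with only the compared genotypes and 0 by limma without the libraries labelled arp5 (2 at an unadjusted p under 0.05), all in short days. INO80-(1-550 aa) against INO80-(335-1540 aa) gave 3 to 6 lower in long days, and 3 to 4 lower and 17 to 18 higher in short days, with a library left out. Day-length differences of INO80-(1-550 aa) were 0 to 4 in each direction with a library left out, 2 negative with the replicate block and 5 positive with equal totals. Those of INO80-(335-1540 aa) were 1 to 3 negative and 0 to 4 positive with a library left out, 5 negative with the replicate block, 5 negative with only the compared genotypes and 8 positive with equal totals. With a library left out, next-door genes called were 21 to 27 (ino80) and 22 to 27 (nfrkb) in long days, 34 to 40 (uch) in short-day repeats 1 and 2, and 3 to 9, 17 to 26 and 7 to 12 (ino80, nfrkb, uch) in the second table. Paralogs called there were 5 to 10, 11 to 15 and 5 to 8, and family genes 9 to 12, 19 to 26 and 10 to 13. With only the compared genotypes, next-door genes called were 20 (nfrkb) and 16 (uch) in long days and 8 (ino80) and 4 (uch) in the second table, paralogs 6 (ino80) and 3 (uch), and family genes 9, 24 and 9 (ino80, nfrkb, uch). Same-numbered libraries correlated above 0.1 in 11 of 36 pairs in long days and 13 of 36 in short-day repeats 1 and 2, with medians of 0.04 and 0.05. In repeats 3 and 4 they did in 10 of 15, with a median of 0.45. The main fits took the numbers as no pairing in either table. In the second table a shared effect of the repeat may therefore be left in the error. With the replicate block, 32 members were lower in the triple mutant in the second table, against 26 without it. The choice of members kept 59 of 60 with a pseudocount of 4, 52 with equal totals, 40 with a Col-0 floor of 50, 49 with repeats 1 and 3 alone and 53 with repeats 2 and 4 alone. The cause of these changes was not tested, beyond the fewer samples or genotypes in a fit.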
